A study of Mus musculus with 2 samples.

Results

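Chondroitin, dermatan and heparan sulfate are sulfated sugar chains that cartilage cells attach to the core proteins of proteoglycans. The genes described here encode the enzymes and transporters that start, lengthen, sulfate, supply and later edit these chains. The members were taken by symbol from a list of 43 such genes, and all 43 were among the 21983 entries of the count table. Of these, 42 had at least 20 counts summed over both libraries and are referred to as measured. Chst13 was the exception.

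The study sequenced total RNA from primary chondrocytes of wild-type (WT) mice grown in DMEM with serum. For 3 days the cells received either PBS, as the control, or recombinant Sparcl1 of mouse sequence (50 ng/ml), and 1 library was made from each. Sparcl1 is a matrix-associated glycoprotein that cells secrete. The labels used here give no strain, age or number of animals. With 1 library per group no difference has a replicate check, no test between conditions was possible and no p-value is given. Paired values are given with the PBS library first. Each ratio, Sparcl1 over PBS, carries an exact 95% Clopper-Pearson counting interval. Such intervals cover counting error only, treat reads as independent molecules, and compare these libraries rather than the treatments.

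Every chain begins with a short sugar linker built on a serine of the core protein. Addition of N-acetylgalactosamine to that linker commits it to chondroitin or dermatan sulfate, whereas N-acetylglucosamine commits it to heparan sulfate. Sulfotransferases in the Golgi then decorate the chain, drawing sulfate from the activated donor PAPS. In cartilage the dense negative charge of chondroitin sulfate holds water and gives resistance to compression. Heparan sulfate binds growth factors such as fibroblast growth factors.

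The library totals were 29858851 counts (PBS) and 26871933 counts (Sparcl1), and the members took 0.482% and 0.485% of them. All 10 chondrocyte markers were measured, and their summed level was 12117 CPM (a gene's share of the library's counts, with library sizes adjusted by TMM factors) in the PBS library and 10766 CPM in the Sparcl1 library. Their median log2 ratio was -0.24, and 8 of the 10 had ratios below 1, beside 50.4% of all measured genes. Markers of other cell types were present too. The 12 macrophage markers summed to 2308 and 2625 CPM with a median log2 ratio of 0.01 and 6 of 12 below 1. The 7 osteoblast markers summed to 8467 and 6498 CPM with a median of -0.38 and 7 of 7 below 1. The 7 fibroblast and tendon markers summed to 9224 and 7465 CPM with a median of -0.30, and 4 were below 1 and 3 above. Most of the chondrocyte sum was Col2a1 (8629 and 7332 CPM), and most of the macrophage sum was Lyz2 (1327 and 1640 CPM). Col1a1 (8206 and 6309 CPM) held most of the osteoblast sum. Col1a2 (7779 and 6328 CPM) held most of the fibroblast and tendon sum. Of the 14 endothelial, muscle and fat markers 3 were measured. Kdr had 54 and 37 counts, Acta1 had 23 and 20, and the fat marker Fabp4 had 61 and 90 (log2 ratio 0.68, 0.19 to 1.17). Fabp4 was higher by the 1.2-fold rule given below. That rule also took 3 macrophage markers (Lyz2, Itgam and Mrc1) as higher and 1 (Fcgr1) as lower. Of the fibroblast and tendon markers 2 (Pdgfra and Scx) were higher and 4 lower. Among osteoblast markers 4 were lower and none higher, and likewise among chondrocyte markers. Of all measured genes 8.34% were higher and 7.66% lower by this rule. Lep, Ckm and Myod1 were at 0 in both libraries. The part of these cell types in the members' values was not tested. In bulk RNA, fewer cells of a type and less RNA per cell cannot be told apart.

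Of the 43 listed members 42 were measured, and as a set they stood close to equal levels in both libraries. No member was higher or lower by at least 2-fold with an interval that excluded 0. By that rule 0.954% of all 13317 measured genes were higher and 0.946% lower. At 1.2-fold, 2 members were higher (Hs3st1 and B3galt6) and 4 were lower (Extl1, Slc26a2, Hs6st2 and Chsy3). That rule took 8.34% of all measured genes as higher and 7.66% as lower, so 2 and 4 of 42 are near the background share. At 1.1-fold 9 members were higher and 10 lower, beside 16.1% and 15.9% of all measured genes. At 1.5-fold 1 was higher and 1 lower, beside 2.32% and 2.35%. The interval alone excluded 0 for 28 of 42 members and for 41.7% of all measured genes, a count that grows with depth, and the members' median level was 15.6 CPM per kilobase against 5.69 for all genes in the PBS library. The median log2 ratio of the members was -0.07 against -0.0019 for all measured genes. Ratios were below 1 for 24 of 42 members (22 to 25 under other scalings), where 50.4% of all genes had ratios below 1. By level per length (CPM per kilobase of merged exons, mean of both libraries), 33 members lay above the median of all measured genes and 22 above the upper quartile.

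**Figure D1:**
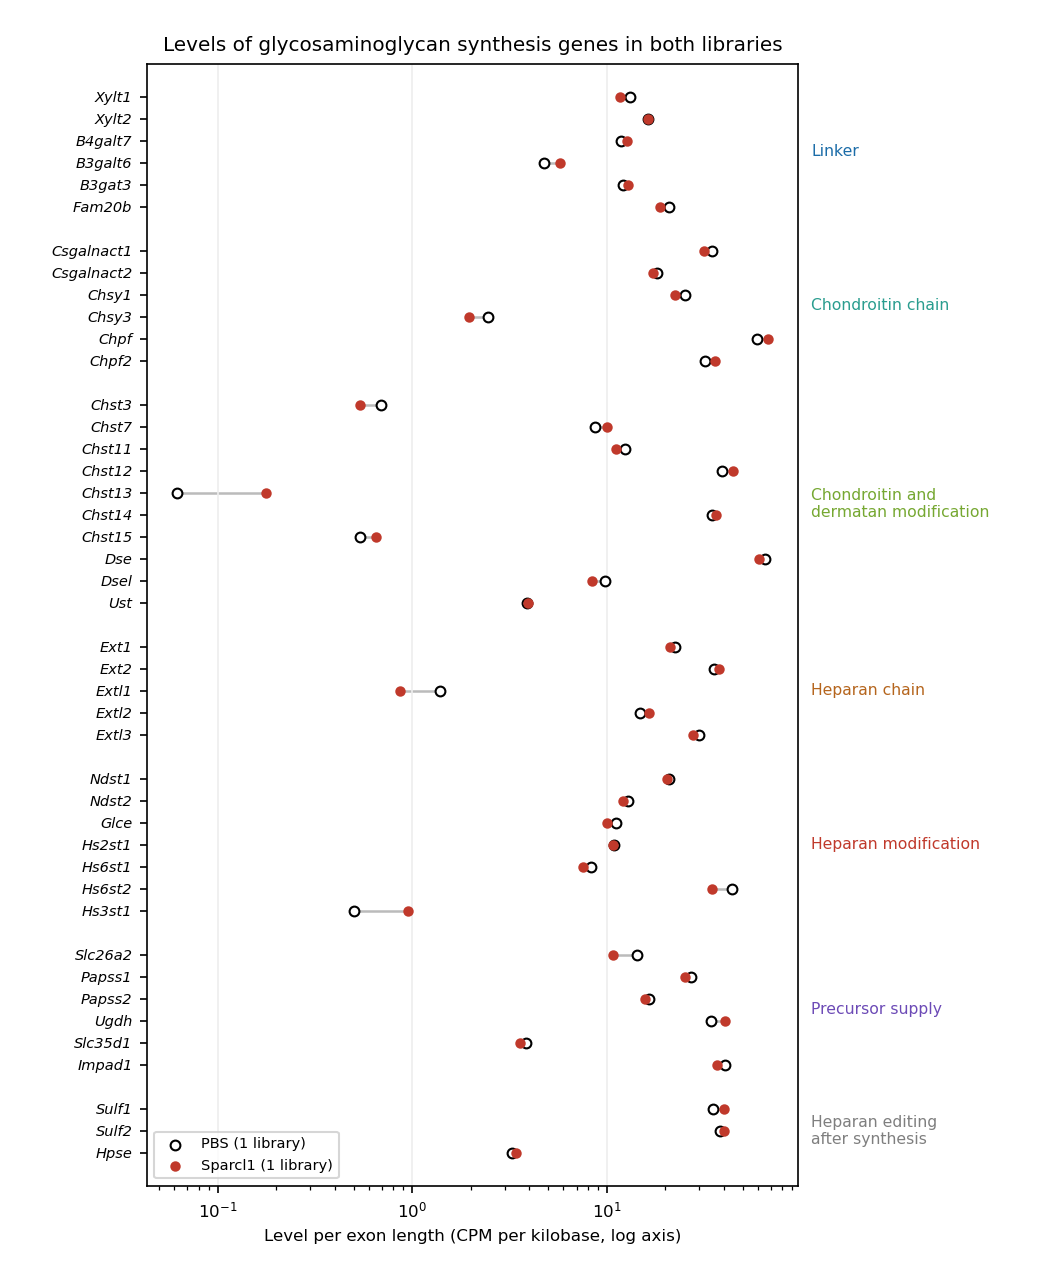
Levels of all 43 members in the PBS library (open circles) and the Sparcl1 library (filled circles), in CPM per kilobase of merged exons on a log axis, ordered by role. Most pairs of points nearly coincide, and levels run from under 1 CPM per kilobase for Chst3, Chst15, Hs3st1 and Chst13 to over 59 for Chpf and Dse.

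Extl1, an exostosin-like N-acetylglucosaminyltransferase of the heparan pathway, was the measured member farthest below equality. It had 178 counts in the PBS library and 102 in the Sparcl1 library, equal to 6.03 and 3.75 CPM. Its ratio on the log2 scale was -0.69 (interval -1.05 to -0.33). Its level of 1.39 and 0.865 CPM per kilobase ranked 39th among the members, so this difference concerns a scarce transcript. Extl1 lies on chromosome 4 at 134356372 to 134383850, minus strand, of GRCm38 (the assembly that mm10 names).

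Slc26a2 encodes the sulfate transporter of the plasma membrane whose loss causes human chondrodysplasias. It had 5207 and 3647 counts, or 176.5 and 134 CPM, and its log2 ratio was -0.40 (-0.46 to -0.34). The Sparcl1 library was thus 24.0% lower for this gene, with an interval far from 0 because the gene is well covered. Its coordinates are chromosome 18, 61192919 to 61211612, minus strand. With the smooth trend of the ratio on exon length removed, the value was -0.31, and Slc26a2 had the longest merged exons of any member at 12370 bases.

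Hs6st2 adds sulfate to the 6-O position of glucosamine in heparan sulfate. Counts were 10172 and 7429, or 345 and 273 CPM, with a log2 ratio of -0.34 (-0.38 to -0.29). It was the most abundant gene of its role group per length, at 44.2 and 35.0 CPM per kilobase, and lies on chromosome X at 51387212 to 51681856, minus strand. With the length trend removed it stood at -0.29.

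Chsy3, a minor chondroitin synthase, had 526 and 386 counts (17.8 and 14.2 CPM), a log2 ratio of -0.33 (-0.52 to -0.14). The gene lies on chromosome 18 at 59175401 to 59535999, plus strand. These 4 lower members kept their place past the 1.2-fold rule under every scaling, count minimum, trend removal and prior count tried.

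Hs3st1 makes the rare 3-O-sulfated glucosamine that antithrombin recognises, and it was the measured member farthest above equality. It had 33 counts in the PBS library and 58 in the Sparcl1 library, or 1.12 and 2.13 CPM. The log2 ratio of 0.93 is poorly fixed (0.29 to 1.59), and a minimum of 100 summed counts leaves the gene out. Its coordinates are chromosome 5, 39613935 to 39755475, minus strand.

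B3galt6 adds the second galactose of the linker and was the other higher member. Counts were 446 and 499, or 15.1 and 18.3 CPM, with a log2 ratio of 0.28 (0.09 to 0.47). With the length trend removed the ratio was 0.26, just short of the 1.2-fold size. Its 3184 bases of exon lie within chromosome 4, 155989466 to 155992649, minus strand.

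The bases before the start sites of 4 of these 6 genes are shown because these are members past the 1.2-fold rule. They come from the set of RefSeq start sites (GRCm38.p6) used here, which covered 34 of the 43 members. No entry was used for Xylt1, Csgalnact1, Chsy3, Ext1, Extl3, Ndst1, Slc26a2, Impad1 and Sulf1. Each is written 5′ to 3′ on the gene's strand and covers the longest stretch outside annotated exons within the 250 bases before the start. The RefSeq starts used for Extl1, Hs6st2 and Hs3st1 lie inside the gene spans given above, which come from GENCODE. The stretches of these genes are therefore not upstream of the whole gene. Hs6st2 has several start sites, and the stretch shown ends 89 bases before one of them. Capitals mark a CCAAT box in Extl1 and a stretch of 15 bases that occurs 6 times in B3galt6.
Extl1, chr4:134372559-134372797: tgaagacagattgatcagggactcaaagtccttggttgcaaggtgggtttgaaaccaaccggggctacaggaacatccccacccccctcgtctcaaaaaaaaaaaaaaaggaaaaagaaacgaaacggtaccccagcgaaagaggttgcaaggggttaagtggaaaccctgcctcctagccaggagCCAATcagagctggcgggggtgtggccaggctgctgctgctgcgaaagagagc
Hs6st2, chrX:51680566-51680727: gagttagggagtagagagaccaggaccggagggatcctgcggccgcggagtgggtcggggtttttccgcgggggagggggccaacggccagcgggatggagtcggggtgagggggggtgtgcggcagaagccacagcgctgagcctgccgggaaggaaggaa
Hs3st1, chr5:39644635-39644881: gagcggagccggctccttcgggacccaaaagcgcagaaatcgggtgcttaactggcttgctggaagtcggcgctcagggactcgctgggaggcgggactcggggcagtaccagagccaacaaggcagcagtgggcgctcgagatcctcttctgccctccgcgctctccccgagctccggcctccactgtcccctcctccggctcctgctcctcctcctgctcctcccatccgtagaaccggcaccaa
B3galt6, chr4:155992679-155992871: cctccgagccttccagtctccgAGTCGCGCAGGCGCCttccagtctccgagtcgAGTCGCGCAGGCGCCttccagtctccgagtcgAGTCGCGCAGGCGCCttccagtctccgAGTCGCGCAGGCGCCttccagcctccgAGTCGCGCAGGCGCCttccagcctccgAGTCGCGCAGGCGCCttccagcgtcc

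The stretches of Hs6st2, Hs3st1 and B3galt6 are rich in G and C (69.1%, 66.4% and 71.0%), whereas that of Extl1 is at 53.1%. Over the 250 bases before each start, a GC box (GGGCGG, both strands) was in 27 of 42 windows of the members (64.3%) and in 56.6% of 13289 windows of measured genes. The 42 windows come from 34 member genes, so a gene with several start sites counts more than once. A CCAAT box was in 38.1% and 34.9%. A TATA box (TATAAA) was in 4.76% and 6.66%. A SOX-type core (ACAAAG or ACAATG) was in 2 windows of the members (4.76%) and in 17.5% of windows of measured genes. The median GC content was 65.0% for member windows and 59.6% for windows of measured genes. Searches were for letters alone and say nothing of whether a factor binds.

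**Figure D2:**
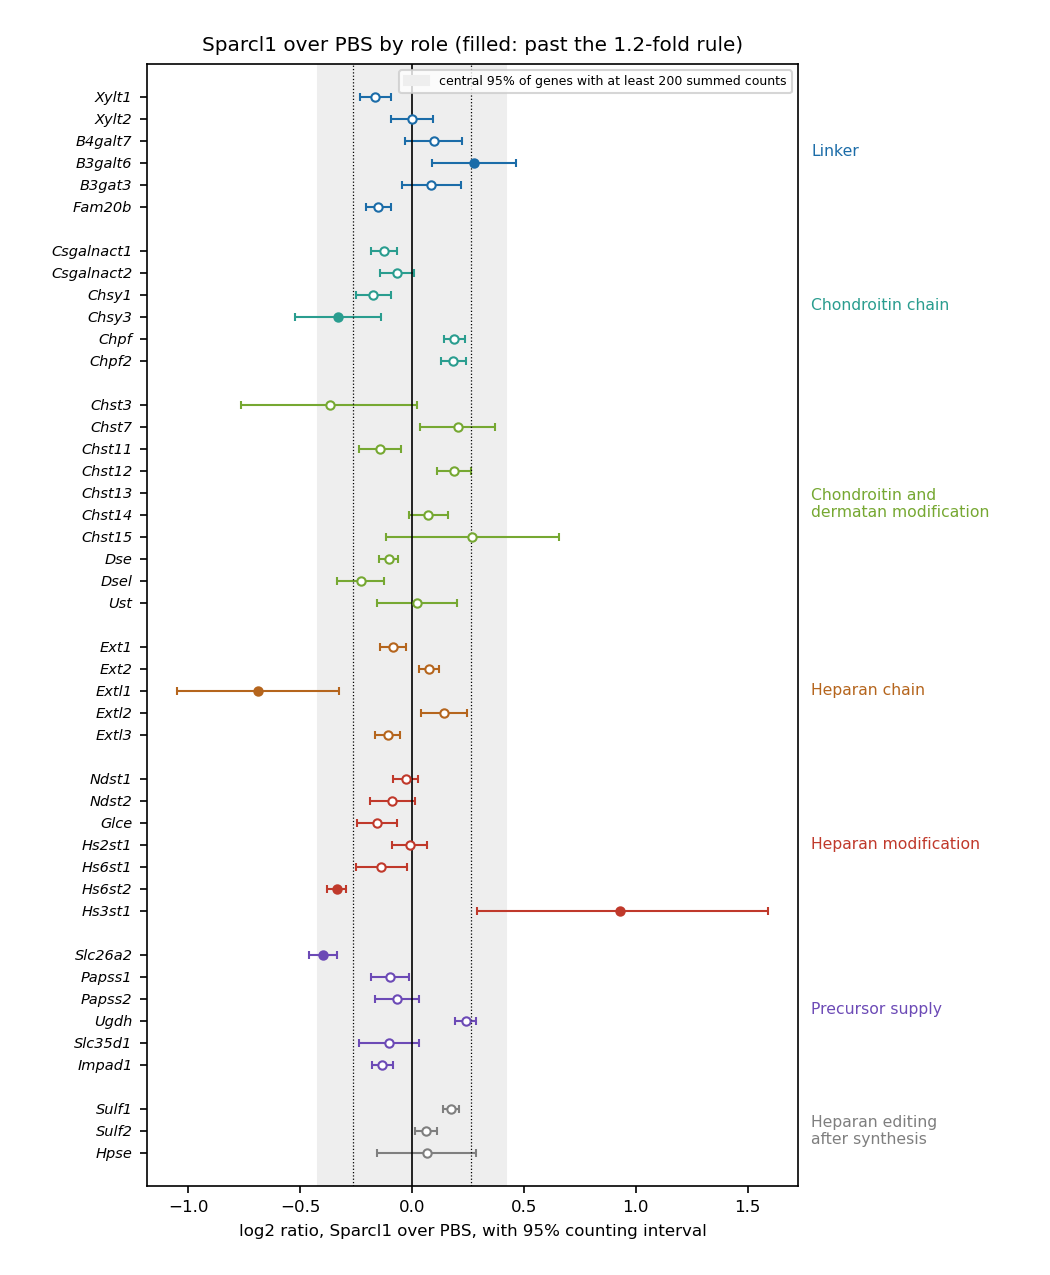
Log2 ratios (Sparcl1 over PBS) of the 42 measured members by role, with 95% counting intervals. Filled points are past the 1.2-fold rule (dotted lines), and the grey band is the central 95% of genes with at least 200 summed counts, from -0.42 to 0.42. All members except Extl1 and Hs3st1 have their point inside the band.

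Among the 6 linker genes the kinase gene Fam20b was the most abundant per length, at 20.9 and 18.8 CPM per kilobase. Fam20b phosphorylates the xylose of the linker. Its counts were 5396 and 4485, with a log2 ratio of -0.15 (-0.21 to -0.09). Xylt1 and Xylt2 encode the xylosyltransferases that begin every chain. Xylt1 had 3747 and 3085 counts (log2 ratio -0.16), while Xylt2 had 1906 and 1758, which is 64.6 CPM in both libraries. B4galt7, which adds the first galactose, had 1014 and 1001 counts (0.10). B3gat3, which closes the linker with glucuronic acid, had 927 and 908 (0.09). The intervals of B4galt7, B3gat3 and Xylt2 included 0. The linker genes thus lay on both sides of equality, and their median was 0.04.

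The 6 chondroitin chain genes split by enzyme type. Chpf and Chpf2, the chondroitin polymerising factors, had higher levels in the Sparcl1 library by nearly the same ratio. Chpf was the most abundant member per exon length by the mean of both libraries (Dse was above it in the PBS library). With coding length in place of exon length it ranked 9th, behind Csgalnact1 of this group at 8th. Chpf had 6766 and 7117 counts, or 59.5 and 67.9 CPM per kilobase, and a log2 ratio of 0.19 (0.14 to 0.24). Chpf2 had 5258 and 5511 counts (0.18, 0.13 to 0.24). Of Chpf2's exons 44.1% overlap Smarcd3 on the opposite strand. Smarcd3 itself had 384 counts in each library, and the strand setting of the counting is not given in the sources used here. The synthases with both transferase activities had lower levels. Chsy1 had 3108 and 2544 counts (-0.17, -0.25 to -0.10), and Chsy3 is given above. Over the scalings, trend removals and prior count tried, the log2 ratio ran from 0.10 to 0.23 for Chpf and from 0.09 to 0.22 for Chpf2. That of Chsy1 ran from -0.21 to -0.14 and that of Chsy3 from -0.33 to -0.29. Together Chsy1 and Chsy3 took 23.2% (22.5 to 23.9) of the reads of these 4 genes in the PBS library and 18.8% (18.2 to 19.5) in the Sparcl1 library. This grouping was chosen after the values were seen. Csgalnact1, whose product adds the first N-acetylgalactosamine and so commits the chain, had 5206 and 4400 counts (-0.13, -0.18 to -0.07). Its relative Csgalnact2 had 2917 and 2568 (-0.07, -0.14 to 0.01).

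Chondroitin and dermatan modification genes had a median log2 ratio of 0.02 over 9 measured members, and none was past the 1.2-fold rule. Dse, the epimerase that turns glucuronic into iduronic acid and so makes dermatan sulfate, was the most abundant. It had 9627 and 8260 counts, or 65.5 and 61.0 CPM per kilobase, and a log2 ratio of -0.10 (-0.15 to -0.06). Its relative Dsel had 1677 and 1319 counts (-0.23, -0.33 to -0.12), close to the size asked for but short of it. Chst14, which sulfates dermatan at the 4-O position, had 2136 and 2073 counts (0.07, interval including 0). Ust, the uronyl 2-O-sulfotransferase, had 531 and 498 (0.02).

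The 4-O-sulfotransferases of chondroitin went in different directions. Chst12 had 2735 and 2875 counts (log2 ratio 0.19, 0.11 to 0.27), and Chst11 had 2018 and 1684 (-0.14, -0.24 to -0.05). Chst13, the third gene of this activity, had 3 and 8 counts. Its ratio, with an interval from -0.53 to 4.08 on the log2 scale, is not interpretable. The ratios of the 6-O enzymes lay on either side of 1. Chst7 had 565 and 600 counts (0.20, 0.04 to 0.37), and Chst3 had 133 and 95 (-0.37, -0.76 to 0.02). The intervals of Chst7's share of their reads overlapped between the libraries. Chst3 had the ratio farthest from 0 of the 9 measured genes of this role group, but its interval reached 0. Summed per length, the 4-O genes stood at 51.7 and 56.1 CPM per kilobase and the 6-O genes at 9.38 and 10.5. The 4-O to 6-O ratio was 5.51 in the PBS library and 5.33 in the Sparcl1 library, so transcripts of the 4-O enzymes outnumbered those of the 6-O enzymes in both. Chst15, which adds a further 6-O sulfate to 4-sulfated units, was rare at 108 and 120 counts (0.27, -0.12 to 0.66).

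Ext1 and Ext2 encode the subunits of the heparan polymerase. Ext2, the most abundant heparan chain gene per length (35.7 and 37.6 CPM per kilobase), was at 7713 and 7499 counts, with a log2 ratio of 0.08 (0.03 to 0.12). Ext1 had 5324 and 4626 counts (-0.09, -0.14 to -0.03). The subunit transcripts therefore lay on opposite sides of equality, each by a small amount. Extl3, which starts the heparan chain, had 5340 and 4566 counts (-0.11, -0.17 to -0.05). Extl2, a transferase that can act on the linker, had 1514 and 1542 (0.14, 0.04 to 0.25). The median of the 5 genes was -0.09, with Extl1 far below the others.

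Of the 7 heparan modification genes, 6 had ratios below 1, although Ndst1 and Hs2st1 turned above 1 with library totals as the scaling. Of all measured genes 50.4% had ratios below 1, and of those over 6 kb 62.9%. The group's median exon length was 6828 bases. Ndst1, which replaces acetyl by sulfate groups and so begins modification, had 5119 and 4627 counts (log2 ratio -0.03, -0.09 to 0.03). Ndst2 had 1727 and 1499 (-0.09). Glce, the glucuronyl C5-epimerase, had 2263 and 1871 counts (-0.16, -0.25 to -0.07). Hs2st1, the uronyl 2-O-sulfotransferase of heparan, had 2645 and 2421 (-0.01), and Hs6st1 had 1359 and 1140 (-0.14, -0.25 to -0.02). The summed reads of the group had a log2 ratio of -0.17 (-0.20 to -0.15), a sum in which Hs6st2 held 43.6% of the reads in the PBS library. Without Hs6st2 the sum of the other 6 genes stood at -0.06 (-0.10 to -0.03).

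Precursor supply genes had ratios below 1 in 5 of 6 cases, beside 50.4% of all measured genes, with a median log2 ratio of -0.10. The intervals of 3 lay below 0 and that of 1 above. The group's median exon length was 6647.5 bases, and 62.9% of all genes over 6 kb had ratios below 1. Besides Slc26a2, Impad1 had 7807 and 6568 counts (-0.13, -0.18 to -0.08). It encodes a Golgi phosphatase that clears the by-product of sulfation. Papss1 and Papss2 make the sulfate donor PAPS, and Papss2 is the form whose loss causes human skeletal dysplasia. Papss1 had 2447 and 2107 counts (-0.10, -0.18 to -0.01) and Papss2 had 1818 and 1600 (-0.07, -0.17 to 0.03). Slc35d1, a carrier of UDP-sugars into the secretory pathway, had 974 and 836 (-0.10, interval including 0). Ugdh went the other way. This dehydrogenase makes UDP-glucuronic acid, a building block of all the chains, and had 6882 and 7492 counts (0.24, 0.19 to 0.29). It was short of 1.2-fold, and passed it with library totals as the scaling or with a GC or length trend removed.

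The 3 genes that edit heparan sulfate after synthesis all had ratios above 1, where 50.4% of all measured genes had ratios below 1. Sulf1 and Sulf2 are extracellular sulfatases that remove 6-O sulfates, and both were abundant. Sulf1 had 11785 and 12262 counts (log2 ratio 0.17, 0.14 to 0.21). Sulf2 had 6627 and 6383 (0.06, 0.01 to 0.11), which was the most abundant of the 3 per length in the PBS library at 38.3 CPM per kilobase. Hpse, the endoglycosidase heparanase, had 340 and 328 counts (0.07, -0.16 to 0.29). Hs6st2, which adds the sulfates that the Sulf enzymes remove, was lower. Setting it beside the Sulf genes was not planned, and the sulfation of the chains was not measured. None of the 3 editing genes reached 1.2-fold.

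Shares of reads within 13 pairs of related enzymes do not depend on library scaling. In 5 of the 13 pairs the counting intervals of the libraries did not overlap. At this depth intervals of single genes often exclude equality, as the 41.7% of all genes above shows. That share is of another measure, and none was computed for pairs over all genes. The count of 5 is therefore not a result about the pairs. Chst12 took 57.5% (56.1 to 59.0) of the reads of Chst11 and Chst12 in the PBS library and 63.1% (61.6 to 64.5) in the Sparcl1 library, a difference of 5.52 percentage points. Per kilobase of exon this difference was 3.95 points, and that of Chst7 in its pair with Chst3 was 2.30 points against 5.39 by reads. The other 11 differences per kilobase lay within the counting error of those by reads. Extl3 took 77.9% (76.9 to 78.9) and 74.8% (73.6 to 75.8) of its pair with Extl2. Ext2 took 59.2% (58.3 to 60.0) and 61.8% (61.0 to 62.7) of its pair with Ext1. Hs6st2 took 88.2% (87.6 to 88.8) and 86.7% (86.0 to 87.4) of its pair with Hs6st1, and so held most reads of that pair in both libraries. Sulf1 took 64.0% (63.3 to 64.7) and 65.8% (65.1 to 66.4) of its pair with Sulf2. Chpf2 (43.7% and 43.6% of its pair with Chpf) and Papss2 (42.6% and 43.2% of its pair with Papss1) had nearly equal shares in both libraries. These are shares of reads, which favour the longer gene.

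**Figure D3:**
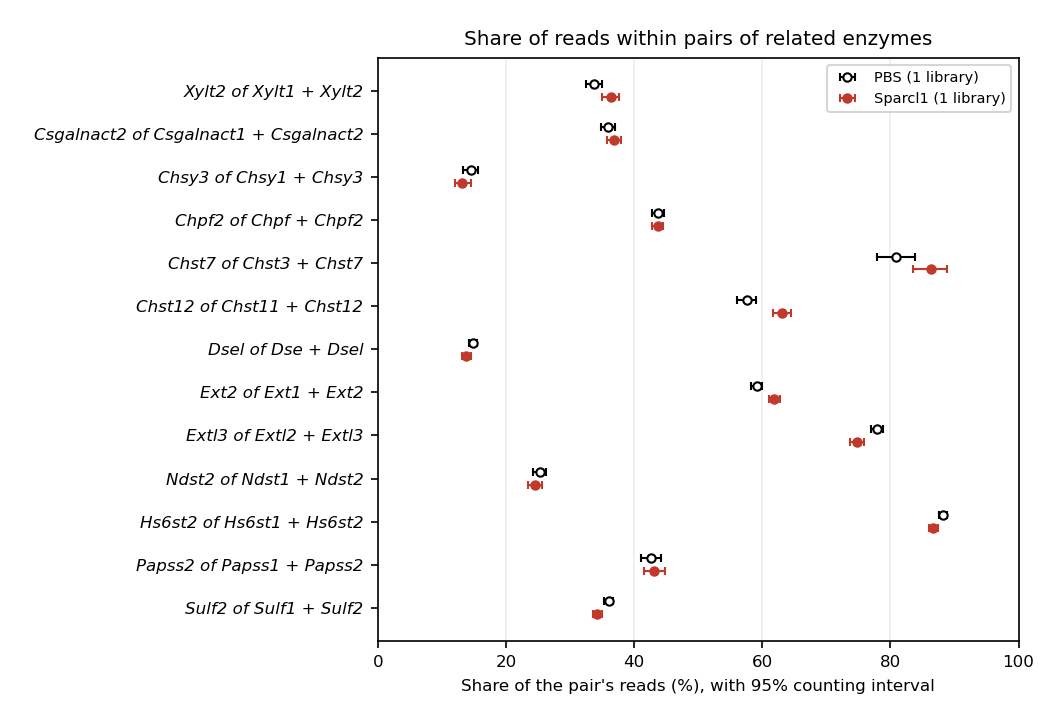
Share of reads taken by the second gene of each of 13 pairs, in percent with 95% counting intervals, in the PBS library (open) and the Sparcl1 library (filled). The intervals are apart for Chst12, Ext2, Extl3, Hs6st2 and Sulf2.

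The members' ratios varied with exon length, as did those of all genes. Spearman's rho between the log2 ratio and exon length was -0.44 over 42 members and -0.21 over 13261 measured genes, as a description across genes of the same 2 libraries. With GC content of the longest transcript, rho was 0.28 over members and 0.29 over all genes. Of 13 members with 2 to 4 kb of exon 2 had ratios below 1, and their median was 0.10. Of 12 members with 4 to 6 kb 9 were below 1 (median -0.11), and of 17 members over 6 kb 13 were below 1 (median -0.11). Over all genes 43.3%, 49.4% and 62.9% were below 1 in these length ranges, with medians of 0.03, 0.0025 and -0.06. Short genes such as B3galt6, Chst12 and Chst7 and long genes such as Slc26a2, Hs6st2 and Xylt1 therefore lie on the side where other genes of their length lie more often. With the length trend removed, the median of the members was -0.04 and 23 of 42 ratios were below 1. How far length or GC content accounts for single members was not tested beyond this.

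**Figure D4:**
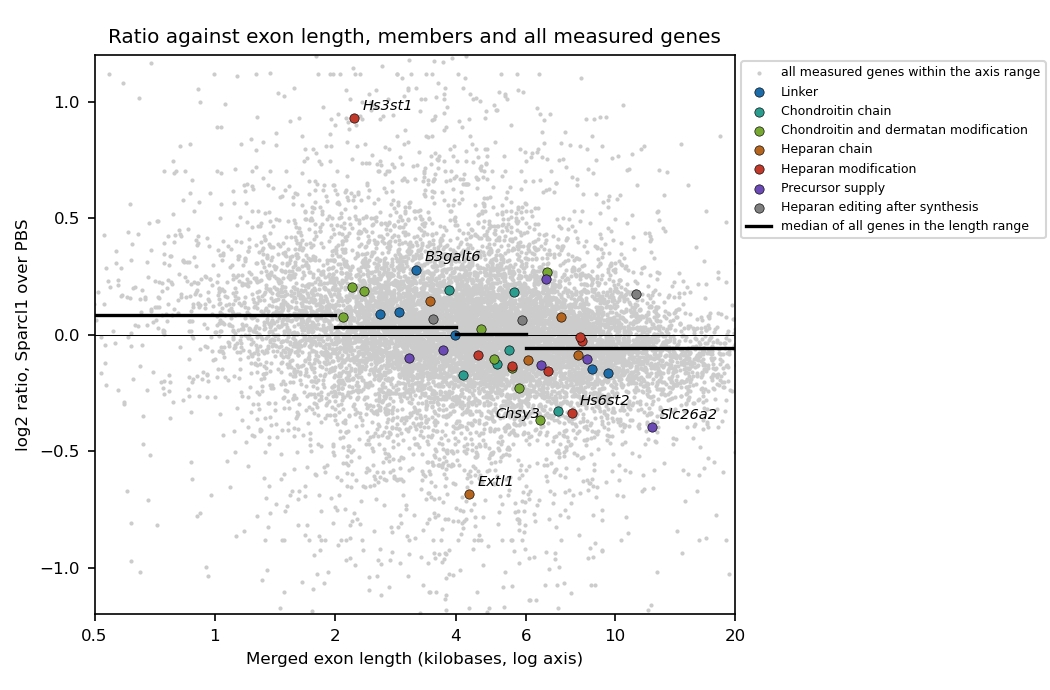
Log2 ratio against merged exon length (kilobases, log axis) for the 42 measured members (coloured by role) and for all measured genes within the axis range (grey), with black lines for the median of all genes in 4 length ranges. The medians step down from 0.08 under 2 kb to -0.06 over 6 kb, and the lower members Chsy3, Hs6st2 and Slc26a2 lie at the long end.

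Other genes that act on these chains or carry them came from 7 lists with 76 genes in the table, 66 of them measured. Their median log2 ratio was -0.02. At 1.2-fold 3 were higher and 7 lower, beside 8.34% and 7.66% of all measured genes. Of 8 further heparan enzymes only 3 were measured, and Hs3st3a1, another 3-O-sulfotransferase, had 102 and 46 counts (log2 ratio -1.03, -1.57 to -0.52), opposite in direction to Hs3st1. Among 15 further linker and precursor genes Ugp2, which makes the UDP-glucose that Ugdh oxidises, was the lower one with 5478 and 4005 counts (-0.33, -0.39 to -0.28). The nearest to it in distance from 0, Gfpt1 of the hexosamine pathway, was at -0.23.

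Keratan sulfate, the other sulfated chain of cartilage, had 2 of 8 measured genes higher and none lower. Of all measured genes 8.34% were higher and 7.66% lower by this rule. Chst5, a glucosamine 6-O-sulfotransferase, had 43 and 80 counts (log2 ratio 1.01, 0.46 to 1.58), and Chst1, the galactose 6-O-sulfotransferase, had 236 and 333 (0.61, 0.37 to 0.86). The list's median was -0.0067. Of 7 measured hyaluronan genes none was past the rule. The receptor gene Cd44 was at 0.23 and the hyaluronan-degrading Cemip at -0.13. Among 14 genes of lysosomal chain breakdown the iduronate sulfatase gene Ids was at -0.24, and the median of that list was 0.01.

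The core proteins that carry the chains came last. Among 8 measured chondroitin sulfate core genes aggrecan (Acan) was the 1 gene past the rule, with 3496 and 2276 counts (log2 ratio -0.50, -0.58 to -0.43). Acan is also among the 10 chondrocyte markers, 4 of which were lower at 1.2-fold, beside 7.66% of all measured genes. Smoc1 was at -0.25, and the list's median was -0.16. Among 11 measured heparan sulfate core genes 1 was higher and 3 were lower, beside 8.34% and 7.66% of all measured genes. Agrin (Agrn) had 4693 and 3314 counts (-0.38, -0.45 to -0.32), and syndecan 2 (Sdc2) had 21389 and 15729 (-0.33, -0.36 to -0.30). Gpc3 was lower from 16 and 4 counts only. The higher gene, syndecan 1 (Sdc1), had 4079 and 4576 counts (0.28, 0.22 to 0.34).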

How the data were processed

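The authors deposited 1 table of raw read counts, its rows named by gene symbol and its columns by library. Per the submitters' processing notes, the build was mm10 and the tools were HTSeq, STAR, FastQC and Trimmomatic. Their versions, the annotation, the strand setting and the handling of reads with several matches are not given in the sources used here. Total RNA was made into libraries with a NEBNext Ultra kit, per the labels' protocols.

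Columns were matched to libraries by name. Counts were scaled with TMM factors (0.988 and 1.01) from edgeR 4.0.16 in R 4.3.3, used for scaling only. DESeq2 1.42.0 gave alternative size factors. Other steps ran in Python 3.11.15 with statsmodels 0.14.6 (trends), scipy 1.17.1 (intervals), matplotlib 3.10.9, pandas 2.3.3 and numpy 2.4.6. Intervals are exact 95% Clopper-Pearson limits on the Sparcl1 library's part of a gene's counts, and a count of 0 entered as 3 counts. A gene was past a rule with at least 20 summed counts, a ratio of at least 2-fold or 1.2-fold, and an interval excluding 0. Coordinates, merged exon lengths and GC content come from GENCODE M21 (GRCm38), matched by symbol for 99.6% of entries. Exons of 7 members overlap a gene on the opposite strand, and no member shared over 2% of its stretches of 50 bases with transcripts of another gene. In 26 entries the symbol had become a calendar date (0.192% and 0.177% of counts), and these stayed in the totals. The steps were tested on simulated counts.

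Every member past the 1.2-fold rule is named with its values. So are, in each role group, the gene of highest level per length and the gene farthest from 0 with at least 100 summed counts. Other members are given by value or range. In the lists of other pathway genes, the 2 genes past or nearest the rule by the interval bound nearest 0 were named, and further ones after their values were seen. The result for 1 gene of these lists is not reported here. One listed gene, Cemip2, was not matched by symbol. The members and lists were chosen with earlier results of these data known.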

Additional observations from a re-analysis of the deposited data

How the results depend on the processing

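Counts of members depended on the size asked for: at 1.1-fold 9 members were higher and 10 lower, and at 1.5-fold 1 was higher (Hs3st1) and 1 lower (Extl1), with the shares of all genes at these sizes given in the results, against 2 and 4 at 1.2-fold and 0 and 0 at 2-fold. With at least 100 summed counts 1 member was higher at 1.2-fold. The other counts under scaling by library totals, DESeq2 size factors or upper quartiles, no count minimum, a prior count of 2 and removal of a length or GC trend were within 1.5 times the main ones. The GC trend and the use of GENCODE coding lengths were added after the data were seen, and coding lengths of RefSeq proteins were not run. The 4 lower members stayed past the 1.2-fold rule under each of these settings. B3galt6 dropped out and Ugdh entered with the length trend removed, and Chst3 entered as lower with the GC trend removed. The median of the members ran from -0.07 to -0.03 over these settings, and the mean was -0.02. The sign of Xylt2, B3gat3, Csgalnact2, Ndst1 and Hs2st1 turned under at least 1 setting. With coding length in place of exon length, 24 of 43 members moved by more than 3 places in the order of levels, by at most 18, so that order is approximate. No paired analysis was possible because there was 1 library per group, and for the same reason no library could be left out. Depth limits the values of Chst13, Hs3st1, Chst3, Chst15 and Extl1 most.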
